A study of Homo sapiens with 34 samples.

Results

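The sites described here are the SOX2 sites of GSI-resistant MB157R cells at which RBPJ was called once the NOTCH1 intracellular domain was induced. A SOX2 summit of MB157R iEV cells on chromosomes 1 to 22 and X was a member if an RBPJ summit of MB157R iN1-ICD cells lay less than 500 bp away. This held for 16954 of 37963 SOX2 sites (44.7%, exact binomial 95% interval 44.2 to 45.2). The 8 peak lists of the series held 290228 peaks on these chromosomes.

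MB157 is a NOTCH-driven triple-negative breast cancer line, and MB157R was grown out of it over 25 weeks in 1 µM of LY3039478, a γ-secretase inhibitor (GSI) that blocks the cleavage releasing the active part of NOTCH receptors. The cells carried a lentiviral vector switched on by doxycycline. In iN1-ICD cells it encoded 3xHA-tagged NOTCH1 lacking the extracellular part (DeltaE-NOTCH1), and in iEV cells it was empty. Both were given 1 µg/ml doxycycline for 72 h, so that earlier GSI selection, vector backbone and doxycycline were shared. Whether GSI was present during these 72 h is not given in the sources used here. Chromatin was fixed with disuccinimidyl glutarate and formaldehyde and precipitated with antibodies against RBPJ or SOX2. Each of the 3 main lists (RBPJ of iN1-ICD, RBPJ of iEV and SOX2 of iEV) had been called on 3 pooled libraries. Further lists used for comparison were SOX2 of iN1-ICD, RBPJ of parental MB157 iEV cells and HA-SOX2 of MB157 iSOX2 cells. Each of these also rested on 3 pooled libraries. In iSOX2 cells the vector encoded HA-tagged SOX2, precipitated with an antibody against HA. The MB157 cells also had 1 µg/ml doxycycline for 72 h, but no earlier GSI selection. Each condition was therefore 1 list, no difference between vectors could be set against a replicate spread, and all intervals cover counting error only. The RBPJ list of iN1-ICD was called against the input of iN1-ICD, whereas both lists of iEV shared the iEV input. Peak lists give no expression.

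RBPJ sits on DNA with and without NOTCH signaling. Without it, RBPJ recruits corepressors, and once the intracellular domain arrives in the nucleus RBPJ binds it together with a Mastermind coactivator and activates targets such as HES1 and NRARP. SOX2 is a high mobility group transcription factor of stem cells that bends DNA at short A/T-rich motifs. After induction of N1-ICD, SOX2 itself was called at 302 of its 37963 iEV sites, so nearly all sites considered below were former SOX2 sites. How many of them carried RBPJ, where, and at which genes was the question asked of these lists.

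The reference sequence (hg38, plus strand) is shown for 11 sites, chosen after their values were seen, because they stand for the main patterns below. Each run covers 101 bases. Capitals mark the RBPJ core TGGGAA, the SOX motifs CATTGT and CTTTGT and the AP-1 motif TGANTCA on either strand. The full RBPJ motif searched was GTGGGAA, which contains the core. In windows of this length, the RBPJ core, SOX and AP-1 motifs lay at 28.7%, 10.1% and 12% of all iN1-ICD RBPJ summits and at 9.45%, 31.2% and 25.2% of all SOX2 summits. A match of letters is not a proof of binding. At the NRARP, NOTCH1, HES1 and ITGA3 sites printed first, the RBPJ summit lay 320, 92, 357 and 7 bp from the SOX2 summit. A core in such a window need therefore not lie at the SOX2 summit. The first sites, centered on the iN1-ICD RBPJ summit, had high RBPJ folds with both vectors, and each holds an RBPJ core:
NRARP upstream, chr9:137311575-137311675: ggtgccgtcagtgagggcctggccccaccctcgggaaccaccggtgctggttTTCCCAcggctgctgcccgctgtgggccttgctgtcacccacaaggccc
NOTCH1 intron 1, chr9:136544546-136544646: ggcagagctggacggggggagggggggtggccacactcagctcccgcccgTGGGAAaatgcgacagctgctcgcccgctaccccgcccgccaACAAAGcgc
HES1 upstream, chr3:194134872-194134972: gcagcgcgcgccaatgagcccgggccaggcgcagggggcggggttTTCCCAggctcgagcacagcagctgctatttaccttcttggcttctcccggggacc
ITGA3 intron 3, chr17:50064844-50064944: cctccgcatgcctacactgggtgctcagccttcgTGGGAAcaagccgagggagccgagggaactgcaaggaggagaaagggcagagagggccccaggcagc

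A second set, centered in the same way, had a higher RBPJ fold with iN1-ICD than with iEV (CELSR2, SGCA, FN1) or RBPJ with iN1-ICD only (F2RL1). Of all sites with an iN1-ICD fold at least 2 times that of iEV, 38.9% had an RBPJ core within 100 bp of the SOX2 summit. The printed windows cover other bases, as their RBPJ summits lay 321 (CELSR2), 392 (SGCA), 11 (FN1) and 38 bp (F2RL1) from the SOX2 summit. Left out are the windows of ADORA2B and CDH1, with a higher fold in iN1-ICD and no core. Also left out is that of MSTO1, with RBPJ in iN1-ICD only and a core. Of the windows printed, all but that of F2RL1, which holds an AP-1 motif, hold an RBPJ core:
CELSR2 upstream, chr1:109240355-109240455: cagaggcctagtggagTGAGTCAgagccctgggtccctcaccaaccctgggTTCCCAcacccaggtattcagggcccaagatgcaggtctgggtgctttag
SGCA downstream of the start, chr17:50178686-50178786: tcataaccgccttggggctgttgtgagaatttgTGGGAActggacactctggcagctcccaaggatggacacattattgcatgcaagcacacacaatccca
FN1 upstream, chr2:215465459-215465559: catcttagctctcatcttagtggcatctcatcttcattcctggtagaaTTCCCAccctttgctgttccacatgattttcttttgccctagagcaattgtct
F2RL1 upstream, chr5:76804396-76804496: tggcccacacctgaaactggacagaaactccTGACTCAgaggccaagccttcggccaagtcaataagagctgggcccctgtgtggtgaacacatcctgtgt

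The last set had strong SOX2 and little or no RBPJ. Left out are the window of CSNK1G1, with 2 SOX motifs, and that of MTF2, the site of highest SOX2 fold. The MTF2 window, centered on its RBPJ summit, holds no RBPJ core, SOX or AP-1 motif. Over all SOX2 summits, 31.2% had a SOX motif in a window of this length, so the motifs printed here reflect the choice of sites. SOX2 was still called in iN1-ICD at the TEAD1 site, but not at those of NRARP and CLIC5. The NRARP and CLIC5 windows are centered on the SOX2 summit and the TEAD1 window on the iN1-ICD RBPJ summit 28 bp from it. All hold a SOX motif and none an RBPJ core:
NRARP promoter, chr9:137302267-137302367: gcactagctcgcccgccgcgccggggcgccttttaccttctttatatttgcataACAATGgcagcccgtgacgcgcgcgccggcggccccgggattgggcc
CLIC5 site, chr6:46062305-46062405: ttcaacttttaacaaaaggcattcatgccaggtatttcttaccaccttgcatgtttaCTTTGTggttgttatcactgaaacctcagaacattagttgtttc
TEAD1 intron 3, chr11:12843103-12843203: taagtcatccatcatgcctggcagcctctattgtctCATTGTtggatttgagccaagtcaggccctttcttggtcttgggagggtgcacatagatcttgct

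Compared with the empty vector, RBPJ was called at fewer SOX2 sites after N1-ICD induction, but at a like share of its own list. RBPJ lay at 44.7% of SOX2 sites in iN1-ICD and at 57.0% (56.5 to 57.5) in iEV. As a share of RBPJ summits, 17059 of 37297 (45.7%, 45.2 to 46.2) were at a SOX2 site in iN1-ICD and 21610 of 46601 (46.4%, 45.9 to 46.8) in iEV. The iN1-ICD list was shorter, and its genome background, recovered from the deposited values, was 1.75 fragments against 1.82 in the iEV list. In parental MB157 iEV cells, which had not been through GSI selection, RBPJ was called at 15.1% of the same SOX2 sites (14.7 to 15.4). The parental list was shorter still, with 25243 summits, of which 22.6% (22.1 to 23.1) were at a SOX2 site of MB157R iEV.

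Where RBPJ was called, its summit lay by definition less than 500 bp from that of SOX2, and the distances given next are cut at that limit. The median distance was 99 bp in iN1-ICD and 90 bp in iEV, and 50.3% and 54.0% of the distances were under 100 bp. At the 14487 sites with both calls the medians were 98 bp in iN1-ICD and 90 bp in iEV, with the summits of the RBPJ lists 57 bp apart. The iN1-ICD summit was the nearer one to SOX2 at 6824 of these sites and the iEV summit at 7538. SOX2 sites without RBPJ in iN1-ICD were mostly far from any RBPJ summit, at a median of 20.81 kb, and 8.95% of them had one between 500 and 1000 bp away.

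RBPJ calls at former SOX2 sites mostly carried over between vectors. Of 37963 sites, 14487 (38.2%) had RBPJ with both vectors, 2467 (6.50%) in iN1-ICD only, 7144 (18.8%) in iEV only and 13865 (36.5%) with neither. Thus 67.0% (66.3 to 67.6) of the sites with RBPJ in iEV had it again in iN1-ICD, and 15.1% (14.6 to 15.7) of those without it had it in iN1-ICD. Calls present with 1 vector only were weak ones. The median RBPJ summit held 14 fragments at sites called only in iN1-ICD and 15 at sites called only in iEV, against 18 (iN1-ICD) and 24 (iEV) at sites with both calls. A peak region of the iEV RBPJ list also overlapped 40.9% of the sites called only in iN1-ICD, and 1459 remained without them. For sites called only in iEV, 6673 of 7144 remained after leaving out those that an iN1-ICD region overlapped.

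How often RBPJ was called again depended on its fold in iEV, the ratio of summit fragments to local input background. Over quintiles of the iEV RBPJ fold, low to high, 39.1%, 50.7%, 67.0%, 82.9% and 95.2% of the SOX2 sites had RBPJ in iN1-ICD. The promoter share of the sites also grew over these quintiles, with 8.48% in the lowest and 30.7% in the highest.

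**Figure D1:**
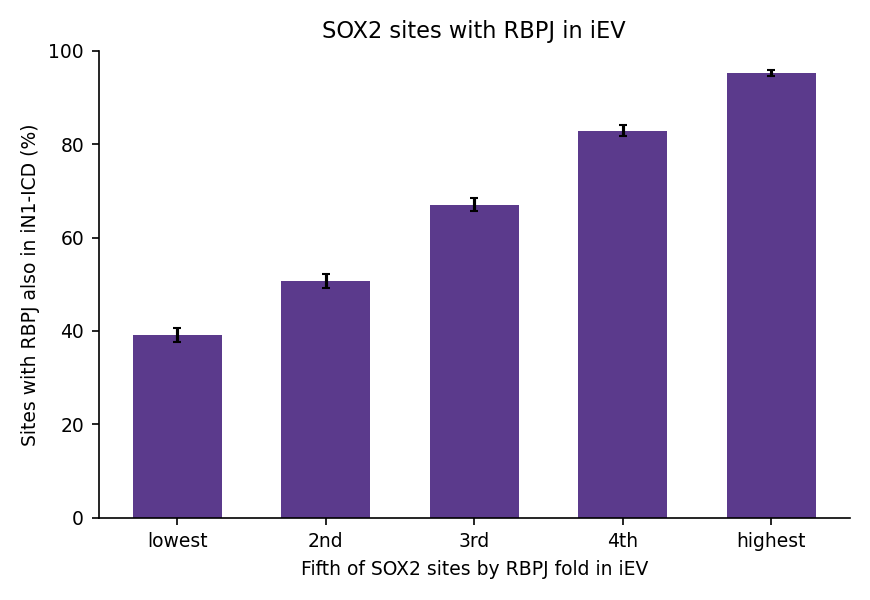
Percent of SOX2 sites with RBPJ in iEV that had an RBPJ summit also in iN1-ICD (y axis), by quintile of the RBPJ fold in iEV (x axis), with exact binomial 95% intervals as bars. The share was 39.1% in the lowest and 95.2% in the highest quintile.

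The 4 classes differed in more than RBPJ. SOX2 sites with RBPJ with both vectors, in iN1-ICD only, in iEV only and with neither had median widths of 495, 391, 434 and 332 bp and median SOX2 folds of 5.75, 4.93, 5.66 and 4.83. Parental MB157 cells with the empty vector had RBPJ at 28.9%, 17.5%, 9.24% and 3.20% of these classes in the same order. HA-SOX2 induced in MB157 was present at 40.3%, 35.8%, 33.0% and 29.7% of them. Promoters made up 22.6%, 20.4%, 14.0% and 6.30% of the classes, and median GC content was 50.7%, 46.8%, 44.8% and 41.3%. Sites with an RBPJ summit in iN1-ICD only thus carried RBPJ in parental cells more often than sites with one in iEV only. However, an iEV RBPJ region overlapped 40.9% of the sites called only in iN1-ICD, and an iN1-ICD region 6.59% of those called only in iEV. The parental share was not counted without the overlapped sites, and the part of place and GC content in it was not tested.

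The few sites that kept SOX2 had RBPJ more often than the rest with either vector. Of the 302 sites with SOX2 still called in iN1-ICD, 245 (81.1%, 76.2 to 85.4) had RBPJ in iN1-ICD, against 16709 of 37661 sites (44.4%, 43.9 to 44.9) where SOX2 was no longer called. In iEV, RBPJ lay at 243 of the 302 (80.5%, 75.5 to 84.8) and at 56.8% (56.3 to 57.3) of the others. Of the 302, 235 came from the top quintile of SOX2 fold, where 55.9% of all sites had RBPJ in iN1-ICD and 73.1% in iEV. Of the 10 sites of highest SOX2 fold among those with RBPJ with both vectors (1 per gene), 9 were among the 302.

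Place set sites apart. Summits up to 1 kb from the transcription start site (TSS) of a protein-coding transcript were counted as promoter sites. Distances are given from the TSS, with a minus sign upstream. RBPJ was called in iN1-ICD at 3781 of 5652 promoter SOX2 sites (66.9%, 65.7 to 68.1), and distal sites had it less often, with an odds ratio of promoter to distal of 2.94 (Woolf interval 2.77 to 3.12). The share was 41.4% in exons, 40.3% in introns, 48.8% between genes with a TSS within 50 kb and 35.5% farther out. Beyond 100 kb from a TSS it was 32.0% in iN1-ICD and 45.1% in iEV. Promoters also kept RBPJ more often. Of sites with RBPJ in iEV, 76.7% (75.4 to 77.9) of promoter sites and 64.6% (63.9 to 65.3) of distal sites had it in iN1-ICD, and of sites without it, 36.6% of promoter sites and 13.1% of distal sites gained it.

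**Figure D2:**
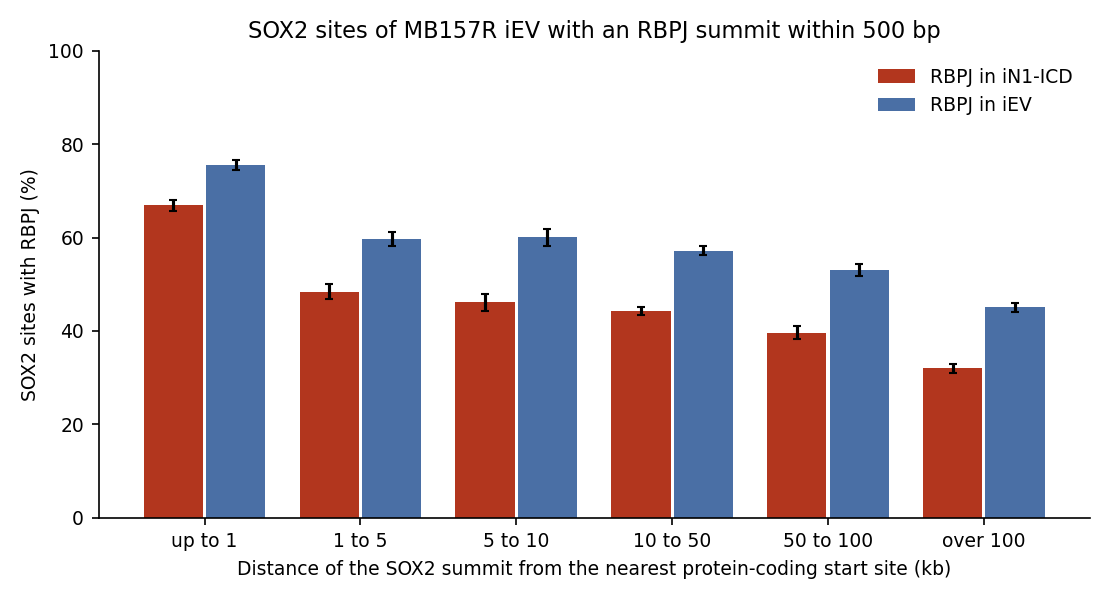
Percent of SOX2 sites with an RBPJ summit less than 500 bp away (y axis) by distance from the nearest protein-coding TSS in kb (x axis), for RBPJ of iN1-ICD (red) and of iEV (blue), with exact binomial 95% intervals. Both are highest at promoters (66.9% in iN1-ICD and 75.6% in iEV) and lowest beyond 100 kb, and iN1-ICD lies below iEV in each bin.

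Among SOX2 sites, the GC content of the 100 bp to each side of the summit went along with RBPJ, and promoters are GC-rich. Over quintiles of GC content, low to high, RBPJ was called in iN1-ICD at 18.6%, 30.9%, 42.8%, 57.5% and 73.5% of sites, and in iEV at 32.1%, 45.6%, 56.8%, 69.4% and 81.1%. Promoter SOX2 sites had a median GC content of 59.2% and distal ones of 43.8%. Within the highest GC quintile, promoter and distal sites had RBPJ in iN1-ICD at 75.1% (73.7 to 76.5) and 72.1% (70.7 to 73.5). Over GC quintiles, the odds ratio of promoter to distal sites was 1.22 (1.14 to 1.31, Mantel-Haenszel), well below 2.94. The part of GC content in ChIP recovery was not tested.

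SOX2 fold went along with RBPJ at distal sites. In the highest quintile of SOX2 fold, 55.9% of sites had RBPJ in iN1-ICD, against 40.3% in the lowest (odds ratio 1.88, 1.76 to 2.01). Promoters are the weaker SOX2 sites, forming 25.0% of the lowest and 7.51% of the highest quintile. Within distal sites the shares over quintiles were 31.6%, 33.2%, 37.7%, 43.8% and 54.6%, and within promoter sites they were 66.2%, 66.2%, 65.4%, 67.9% and 72.5%. Strong distal SOX2 sites thus had RBPJ less often than weak promoter ones.

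**Figure D3:**
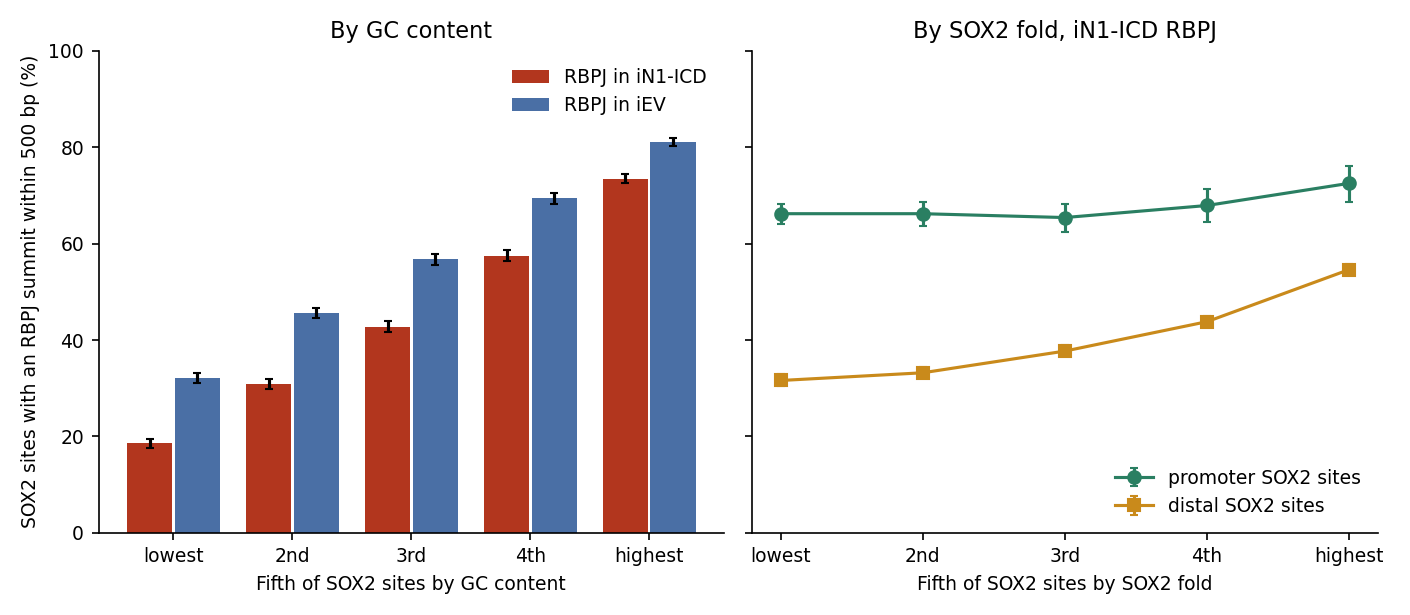
Percent of SOX2 sites with RBPJ (y axis). Left, by quintile of GC content for RBPJ of iN1-ICD (red) and iEV (blue); right, by quintile of SOX2 fold for RBPJ of iN1-ICD at promoter (circles) and distal (squares) SOX2 sites. Bars are exact binomial 95% intervals. The iN1-ICD share is 18.6% in the lowest and 73.5% in the highest GC quintile, and 31.6% and 54.6% in the lowest and highest SOX2 fold quintile at distal sites.

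Chromosomes differed widely. The share of SOX2 sites with RBPJ in iN1-ICD was lowest on chromosome 4 (26.8%, 24.8 to 28.9) and highest on chromosome 19 (66.1%, 62.7 to 69.3). Promoter sites made up 11.4% of the SOX2 sites of chromosome 4 and 39.2% of those of chromosome 19. The median RBPJ background of iN1-ICD was 1.75 fragments at the peaks of chromosome 4 and 2.01 at those of chromosome 19, and the part of depth in this order was not tested.

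The RBPJ motif marked the SOX2 sites that carried RBPJ. Within 100 bp of the SOX2 summit, GTGGGAA was found at 6.56% of sites with and 2.60% of sites without RBPJ in iN1-ICD (odds ratio 2.63, 2.37 to 2.92). The core TGGGAA was found at 24.6% and 13.6% (odds ratio 2.07). The same letters in reverse order, AAGGGTG, a control of like base composition, had an odds ratio of 1.30 (1.17 to 1.45). Over GC quintiles the RBPJ motif had 2.66 (2.38 to 2.98) and its reversed control 1.13 (1.01 to 1.27). By class, GTGGGAA was found at 6.94% of sites with both calls, 4.34% with RBPJ in iN1-ICD only, 2.90% in iEV only and 2.45% with neither.

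Other motifs moved with GC content. SOX motifs were found at 38.3% of sites with and 46.9% of sites without RBPJ in iN1-ICD (odds ratio 0.702, 0.674 to 0.732), and their reversed control, TGTTAC or TGTTTC, had a like value of 0.743 (0.709 to 0.779). Over GC quintiles the SOX motifs had 0.858 (0.821 to 0.898) and the control 1.01 (0.964 to 1.07). The AP-1 motif, bound by FOS and JUN dimers, was found at 36.0% and 43.1% (0.744, 0.713 to 0.775), and over GC quintiles its value crossed 1 (1.04, 0.995 to 1.09). The ETS motif CCGGAAG had 2.87 (2.50 to 3.29) without and 1.33 (1.15 to 1.54) with GC quintiles, the TEAD motif GGAATG 1.02 and 1.16 (1.10 to 1.23), and the RUNX motif TGTGGT 0.791 and 0.967 (0.917 to 1.02). Of these motifs, only the RBPJ pair kept an odds ratio above 2 over GC quintiles.

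Seen from the RBPJ summits, those at SOX2 sites had higher folds and fewer RBPJ motifs than those elsewhere, with either vector. Median RBPJ folds in iN1-ICD were 5.29 at SOX2 sites and 4.65 elsewhere, and over quintiles of RBPJ fold 33.7%, 39.8%, 44.6%, 51.6% and 59.0% of summits were at a SOX2 site. GTGGGAA lay within 100 bp of 11.7% of RBPJ summits at SOX2 sites and 16.4% elsewhere (odds ratio 0.674, 0.635 to 0.715). SOX motifs lay at 26.5% and 14.2% (2.17, 2.06 to 2.29) and AP-1 motifs at 30.1% and 14.3% (2.59, 2.46 to 2.72). Promoters were rarer among them (22.5% against 37.2%), and among distal summits the RBPJ, SOX and AP-1 odds ratios were 0.607, 1.97 and 2.27. Over all iN1-ICD summits, the reversed SOX control had 1.48 (1.40 to 1.56) and the RUNX motif 1.55 (1.46 to 1.64). Median GC content was 51.7% at SOX2 sites and 58.2% elsewhere, and no adjustment for it was made here. In the iEV list the RBPJ, SOX and AP-1 odds ratios were 0.722, 2.68 and 3.05. Its median folds were 5.67 at SOX2 sites and 4.82 elsewhere.

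At most sites with both calls, RBPJ enrichment was close in both lists, with a median ratio of iN1-ICD to iEV fold of 0.853 and 5th and 95th percentiles of 0.482 and 1.56. The exceptions differed by place. The ratio was at least 2 at 185 sites (1.28%), of which 6 (3.24%, 1.20 to 6.93) were promoters, and at most 0.5 at 887 sites (6.12%), of which 399 (45.0%, 41.7 to 48.3) were promoters. Within distal sites, GTGGGAA lay at 28 of 179 (15.6%, 10.7 to 21.8) with a ratio of at least 2, at 7.27% (6.78 to 7.78) of those between and at 37 of 488 (7.58%, 5.39 to 10.3) with a ratio of at most 0.5. SOX motifs lay at 47.5% (40.0 to 55.1), 39.9% (39.0 to 40.9) and 34.8% (30.6 to 39.2) of these distal groups in the same order, and parental RBPJ at 31.8% (25.1 to 39.2), 19.5% (18.8 to 20.3) and 29.9% (25.9 to 34.2). The ratio compares pooled lists called against different inputs.

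The sites named next were picked after their values were seen, by what their genes are known to do, from the 12 of highest and the 12 of lowest ratio with a fold of at least 10 in a list. The highest ratio was that of SGCA. At a site 12.3 kb from the TSS of SGCA, a sarcoglycan gene of muscle (chromosome 17, 50178063 to 50178717), RBPJ had a fold of 41.2 in iN1-ICD and 8.68 in iEV, on 154 and 46 fragments. FN1, which encodes fibronectin, had a site at -29.4 kb (chromosome 2, 215465324 to 215465565) with a fold of 20.4 in iN1-ICD and 5.77 in iEV. MCL1, an anti-apoptotic BCL2 relative, had 32.8 in iN1-ICD and 9.63 in iEV at 11.1 kb. BAG3, a co-chaperone, had 30.3 in iN1-ICD and 8.79 in iEV at 30.2 kb. On the other side, BDH1, a ketone body enzyme, had a site in intron 1 with 3.82 in iN1-ICD and 16.6 in iEV, the promoter of SLC50A1, a sugar transporter, had 7.23 and 25.1, and intron 1 of CD58, an adhesion receptor, had 4.68 and 17.5.

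The former SOX2 sites of highest RBPJ fold in iN1-ICD had SOX2 folds on both sides of the median of all SOX2 sites, 5.32. The highest of all was found at -9.67 kb of NRARP, whose product limits NOTCH activity by feedback, in an annotated intron outside that gene (chromosome 9, 137311659 to 137311996). Its RBPJ fold was 99.2 in iN1-ICD and 111 in iEV, with a SOX2 fold of 3.53 and summits 320 bp apart. A site in intron 3 of ITGA3, an integrin of the basal epithelium (chromosome 17, 50064716 to 50065140), had an RBPJ fold of 59.1 and 65.3, with a SOX2 summit 7 bp away. Further sites lay at the promoter of GTF2H4, a TFIIH subunit (61.9 in iN1-ICD and 133 in iEV), and in intron 1 of SHANK2, a scaffold protein (59.2 and 33.3). ADORA2B, an adenosine receptor, and CELSR2, a cadherin, had 58.3 and 54.2 in iN1-ICD against 17 and 18.1 in iEV, at sites -24.1 and -8.81 kb from their TSS. All 10 sites of this rank, with SOX2 folds between 3.47 and 8.45, also had RBPJ in parental cells, against 28.9% of all sites with both calls.

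Where iEV had no RBPJ, the highest iN1-ICD folds were lower. The highest was 16.6 on 53 fragments, at -14.4 kb of F2RL1, which encodes a receptor cleaved by trypsin-like proteases (chromosome 5, 76804367 to 76804578). Others were 10.9 at 31.2 kb of GKN2, a stomach secretory protein, and 10.4 in intron 2 of IGSF3. Ranks 7 and 8, PSG11 and PSG8, are near-identical pregnancy glycoprotein genes whose reads may be exchanged. None of the 10 had RBPJ in parental iEV cells, which had it at 17.5% of all sites with RBPJ in iN1-ICD only. With 10 sites, this difference was not tested. F2RL1 also had one of the strongest SOX2 sites with RBPJ with both vectors, in its intron 1 (SOX2 fold 36.9, RBPJ fold 4.52 in iN1-ICD and 10.2 in iEV).

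The strongest SOX2 sites were not those of highest RBPJ fold. The MTF2 promoter, a Polycomb-associated protein (chromosome 1, 93078842 to 93079565), had the highest SOX2 fold, 62.9, and an RBPJ fold of 6.09 in iN1-ICD and 14.3 in iEV. A site near VWCE had a SOX2 fold of 53.8 with RBPJ folds of 5.22 and 7.70, and one in intron 2 of CDKAL1 had 52.4 with 7.18 and 10.3. Intron 3 of TEAD1, a DNA-binding partner of YAP, had a SOX2 fold of 51.4 and RBPJ in iN1-ICD only, with a fold of 4.33 on 12 fragments. SOX2 was still called in iN1-ICD at this TEAD1 site, as it was at those of MTF2, VWCE and CDKAL1. Of strong SOX2 sites with RBPJ in iEV only, CLIC5 (SOX2 fold 44.9), SPRY1, a feedback inhibitor of receptor kinases (40.9), and COL21A1, a collagen gene (34.5), led, with RBPJ folds of at most 4.43 in iEV. SOX2 was still called in iN1-ICD at the SPRY1 site, but not at those of CLIC5 and COL21A1. Sites that no RBPJ peak region overlapped with either vector included the NRARP promoter (52.3), intron 4 of CSNK1G1, a casein kinase (39.2), and a site at -11.0 kb of BUB1, a spindle checkpoint kinase (26.9). Strong SOX2 sites were therefore found in all 4 classes.

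By gene, 6714 of the 9863 protein-coding genes with a SOX2 site within 50 kb had RBPJ in iN1-ICD at such a site (68.1%, or 33.6% of all 19962 genes). At the level of sites the share was 50.5% of 23851 in iN1-ICD and 62.3% in iEV. At promoters, 3454 of 4843 genes with a SOX2 site carried RBPJ in iN1-ICD. RBPJ was present at SOX2 sites in iN1-ICD but not iEV for 434 genes, and the other way for 1466. Of 3006 genes with at least 3 SOX2 sites, 259 had RBPJ in iN1-ICD at all of them and 308 at none. HRH1, a histamine receptor, had the most, at 21 of 22 sites, 5 of them with RBPJ in iN1-ICD only. It was followed by SMAD3, a TGF-β signal transducer, and TNS3, a focal adhesion protein, with 16 of 20 each, and by KCNJ15, a potassium channel, with 15 of 18. Picked after their values were seen, DAAM1, an actin-organizing formin, and MAPK10, a JNK kinase, had none at 8 sites each, with RBPJ in iEV at 3 and 2 of them. Genes with many SOX2 sites thus ranged widely around the 50.5% of all sites.

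Of 30 key genes, 25 had a SOX2 site and 22 had RBPJ in iN1-ICD at one, at 75 of 136 sites. Over all genes these shares were 49.4% with a SOX2 site, 68.1% of those with RBPJ in iN1-ICD, and 50.5% of sites. Among receptors, NOTCH1 had RBPJ in iN1-ICD at 7 of 8 sites. Its promoter SOX2 site (chromosome 9, 136546184 to 136546861, SOX2 fold 15.0) had an RBPJ fold of 9.04 in iN1-ICD and 10.4 in iEV, with summits 6 bp apart. In intron 1, a weak SOX2 site (4.30) lay at an RBPJ peak of 23.7 in iN1-ICD and 45.4 in iEV, and a site at -22 kb had an RBPJ summit in iN1-ICD only (6.30), although an iEV RBPJ region overlapped it. The vector carried NOTCH1 coding sequence, but none of these sites lies in a coding exon. NOTCH3 had RBPJ in iN1-ICD at 1 of 3 sites and at all 3 in iEV. One of the sites lost lies in intron 2 under the same iEV RBPJ peak (30.3) as the site kept, and an iN1-ICD RBPJ region overlapped it too.

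Ligands and modulators were mixed. JAG1, a ligand, had RBPJ in iN1-ICD at 4 of 6 sites, and the single DLL1 site, at its promoter, had it in iEV only (4.24). LFNG, a glycosyltransferase that modifies NOTCH receptors, had 4 of 7, but the strongest SOX2 site, in intron 1 (31.8), had no RBPJ summit within 500 bp with either vector, while an RBPJ peak of fold 24.4 in iN1-ICD and 30.3 in iEV covered intron 1 with its summit by a weak SOX2 site (3.01). The RBPJ gene itself had 2 of 7. NOTCH2 had no SOX2 site.

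Among NOTCH targets, HES1, a repressor, had RBPJ in iN1-ICD at 6 of 9 sites, including the promoter (chromosome 3, 194134612 to 194136191), where the RBPJ fold was 23.9 in iN1-ICD and 39.4 in iEV. A site at 3.44 kb had an RBPJ summit in iN1-ICD only (6.75), within an iEV region, and one at -3.52 kb in iEV only (6.38). NRARP had 2 of 4. Its promoter site, with a SOX2 fold of 52.3 and 220 bp wide, had no RBPJ and no HA-SOX2 in MB157 iSOX2 cells, and whether reads there are unusual was not tested, and a neighbor at -0.717 kb had an RBPJ summit in iN1-ICD only (4.99), again within an iEV region. HEY1 had 2 of 4, with 28.0 in iN1-ICD and 42.1 in iEV at -16.4 kb, HES4 1 of 1, and the single DTX1 site had RBPJ in iEV only. HES5, HEY2 and HEYL had no SOX2 site. Cyclin D1 (CCND1) had 3 of 4, and at -41.3 kb RBPJ had a higher fold in iN1-ICD (13.2) than in iEV (5.64). At MYC, 2 of 4 sites had RBPJ (15.1 and 7.43 in iN1-ICD against 12.5 and 7.33 in iEV), but the pair nearest the start had no RBPJ summit within 500 bp, while RBPJ regions of both lists overlapped them. CDKN1A, the cell cycle inhibitor p21, had both of its sites.

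Of the 39 sites of the SOX family, 5 had an RBPJ summit in iN1-ICD only and 9 in iEV only, against 6.50% and 18.8% of all SOX2 sites. SOX2 had RBPJ in iN1-ICD at 3 of 5 sites, among them its promoter (4.23 in iN1-ICD and 5.32 in iEV), and at sites at -2.33 and 27.9 kb in iN1-ICD only (3.71 and 3.73, on 11 and 10 fragments), with no iEV region. Its site at 4.20 kb had RBPJ in iEV only (3.79). SOX4 had 5 of 7, of which the promoter and a site at 2.80 kb (5.02) were in iN1-ICD only by summit, both within an iEV region. SOX9 had 4 of 7, with 1 in iN1-ICD only and 2 further sites in iEV only. SOX4 and CDKAL1 lie in a stretch of chromosome 6 (20377954 to 22828830) holding 107 SOX2 sites with a background over 10 times the median of the list, 67 of them with RBPJ in iN1-ICD. At SOX4 sites the RBPJ background of iN1-ICD was 38.3 to 41.6 fragments, against a median of 2.26 over the list, so these folds rest on other counts than elsewhere.

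Genes of epithelial and mesenchymal state differed from site to site. CDH1 (E-cadherin) had RBPJ in iN1-ICD at 4 of 7 sites, all in intron 2, and at one of them (chromosome 16, 68760526 to 68761254) the RBPJ fold was 25.1 in iN1-ICD and 10.2 in iEV. The tight junction gene CLDN4 had 5 of 6, all with both vectors, and CLDN3 had no SOX2 site. CDH2 (N-cadherin) had 1 of 6, at its promoter (5.08 in iN1-ICD and 8.50 in iEV), VIM (vimentin) 0 of 3, with RBPJ regions of both lists over its promoter pair, ZEB2 2 of 7 and SNAI2 1 of 3. The adhesion receptors CD44 and ITGA6 had 6 of 10 and 8 of 14, and ITGA6 had RBPJ in iN1-ICD only at 3 sites and in iEV only at 3, among them a promoter site (7.45).

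**Figure D4:**
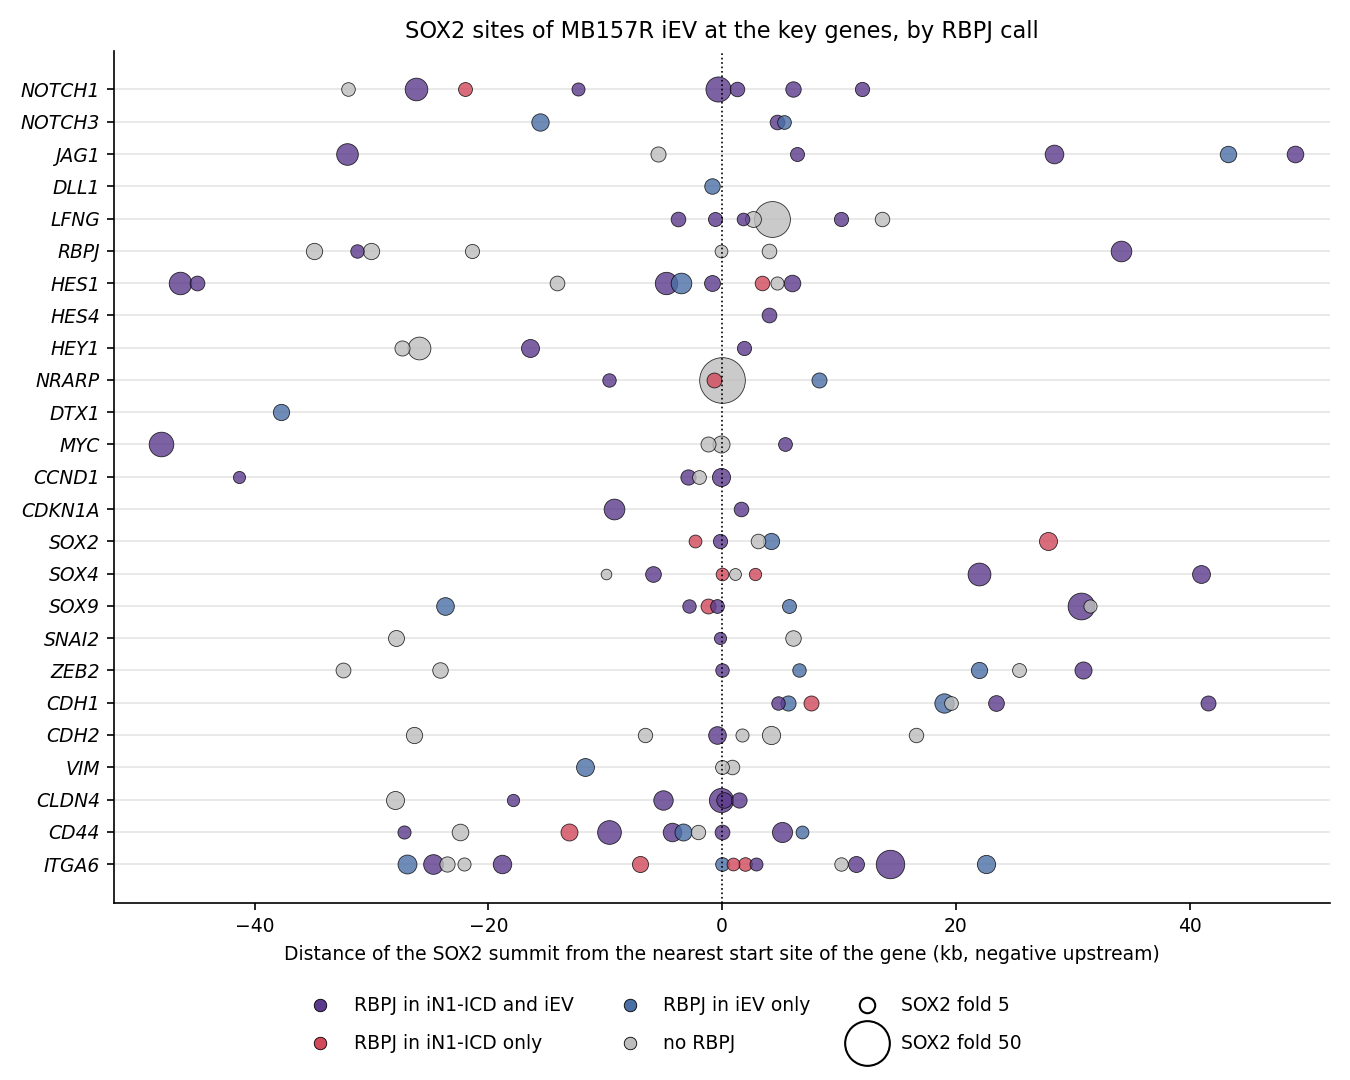
SOX2 sites of MB157R iEV at the 25 key genes that had one, by distance of the SOX2 summit from the nearest TSS of the gene (x axis, kb, negative upstream). Color gives the RBPJ summit call (purple, both vectors; red, iN1-ICD only; blue, iEV only; grey, neither) and point area grows with the SOX2 fold. The large grey points are the NRARP promoter (52.3) and intron 1 of LFNG (31.8), which had no RBPJ summit within 500 bp, and 75 of the 136 sites had RBPJ in iN1-ICD.

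Gene lists are given as counts beside the 50.5% of all sites given to a gene, with no test. In iEV that share was 62.3%, and of the 23851 sites 1694 had RBPJ in iN1-ICD only. Of the canonical NOTCH targets, 17 of 19 genes with a SOX2 site had RBPJ in iN1-ICD at one, against 68.1% over all genes with a SOX2 site. These 19 genes had 68 SOX2 sites and all 9863 genes 23851, and the part of sites per gene was not tested. By site, RBPJ lay at 41 of the 68 in iN1-ICD (60.3%, 47.7 to 72.0), against 69.1% in iEV. For receptors, ligands and modulators the count was 55 of 101 sites (54.5%) in iN1-ICD, against 68.3% in iEV. The study NOTCH signature had 132 of 227 sites (58.1%, 51.4 to 64.6) in iN1-ICD and 67.8% in iEV, but it was drawn in part from RNA-seq of these lines and is not independent. The AP-1 family had 25 of 35 (71.4%, 53.7 to 85.4) in iN1-ICD and 85.7% in iEV, with FOSL2 at 6 of 9, JUN at 5 of 7 and FOS at 3 of 5 sites, and none in iN1-ICD only. Sprouty and MAP kinase feedback genes had 43 of 69 (62.3%, 49.8 to 73.7) in iN1-ICD and 71.0% in iEV. Among them the phosphatase gene DUSP1 had 7 of 8 in iN1-ICD and 4 in iEV, whereas DUSP6 had 3 of 7 and 7.

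The basal mammary list had a like share with both vectors. RBPJ lay at 62 of 102 sites in iN1-ICD (60.8%, 50.6 to 70.3) and at 61.8% in iEV, with 14 sites in iN1-ICD only and 15 in iEV only. Over all 23851 sites given to a gene, 50.5% had RBPJ in iN1-ICD and 62.3% in iEV, with 1694 sites in iN1-ICD only and 4507 in iEV only. EGFR, a growth factor receptor, had 11 of 14, FOXC1, a forkhead factor of basal-like cancer, 7 of 7, and ITGA3 6 of 6, whereas TP63 had 5 of 15. The luminal list had 11 of 28 (39.3%, 21.5 to 59.4) in iN1-ICD and 53.6% in iEV, with ESR1 (estrogen receptor) at 2 of 8. The EMT and mesenchymal list had 32 of 73 (43.8%) in iN1-ICD and 46.6% in iEV. In it TNC (tenascin C) had 7 of 10, FN1 5 of 6 and TGFB2 3 of 5, whereas TGFBR2, TWIST1, LOX and COL1A2 had none. The EMT list was thus split between genes.

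The other lists were as follows. The epithelial list had 50 of 88 sites (56.8%) with RBPJ in iN1-ICD, TEAD and YAP pathway genes 29 of 55 (52.7%), Src family and dasatinib target kinases 31 of 55 (56.4%), the SOX family 18 of 39 (46.2%), stem cell and pluripotency genes 21 of 41 (51.2%), cell cycle genes 19 of 33 (57.6%) and ribosomal protein genes 12 of 19 (63.2%). Intervals of all of these include 50.5%. Genes of other cell types had few SOX2 sites, namely 3 for liver, 6 for blood cell and 11 for muscle genes, with RBPJ in iN1-ICD at 1, 3 and 8. SOX2 sites were found at 2 of 15 liver, 3 of 15 blood cell and 4 of 15 muscle genes, against 49.4% of all genes.

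**Figure D5:**
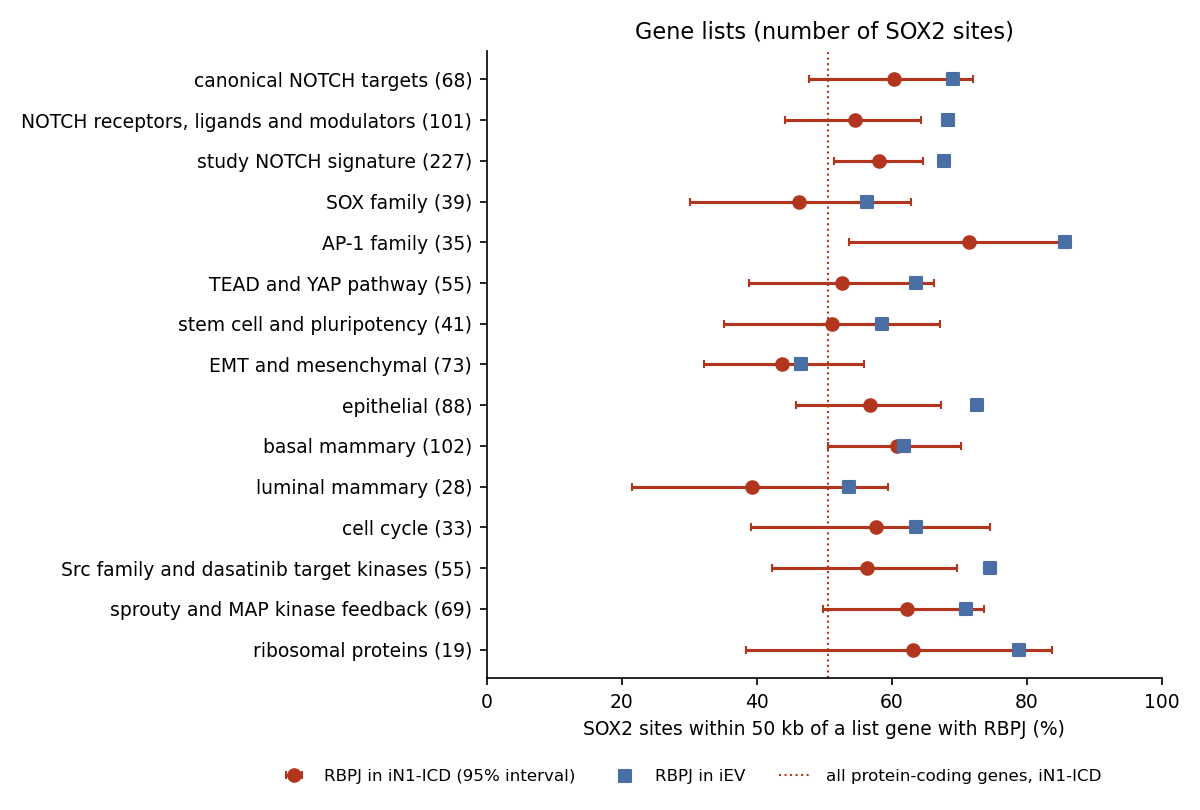
Percent of the SOX2 sites given to genes of each list that had RBPJ in iN1-ICD (red, with exact binomial 95% interval) and in iEV (blue squares). The number of sites is in parentheses, and the dotted line is the 50.5% of all protein-coding genes in iN1-ICD. The lists of other cell types, with few sites, are not plotted. Among those plotted, the AP-1 family is farthest to the right at 71.4% in iN1-ICD.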

How the data were processed

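Reads were aligned by the authors with BWA (genome build hg38). Peak calling by MACS2 used, for each group, its libraries pooled against input. Versions of both are not given in the sources used here. The 34 samples gave 8 lists. The deposited columns are start, end and summit (other, in bp), a score (10 times −log10 q, whole numbers), the authors' ratio (fold over local input background), and the deposited −log10 p and −log10 q. Ratio and −log10 p give back the fragments at a summit and their background, which was tested on simulated data. The median summit held 16 fragments in the iN1-ICD RBPJ list, 18 in the iEV RBPJ list and 19 in the SOX2 list, which sets the precision of single folds. Read totals were not used here.

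Summits less than 500 bp apart matched. Shares carry exact binomial and odds ratios Woolf 95% intervals. Adjustment for SOX2 fold or GC content used the Mantel-Haenszel estimate with 5 bins. Genes were protein-coding genes of GENCODE 44. A promoter lay within 1 kb of a TSS, and each site went to the closest TSS up to 50 kb away. Motifs were searched within 100 bp of summits.

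Named were 30 key genes, the 10 sites of highest SOX2 fold in each RBPJ class, the 10 of highest iN1-ICD RBPJ fold with and without iEV RBPJ (1 per gene), and the 10 genes with most members. Members and the 18 gene lists were chosen with earlier results of these data known. Bins of GC content, fold ratios and printed sequences were chosen after seeing the data. One list gene, GAS5, is not protein-coding and was not counted. Alternatives were distances of 100, 250 and 1000 bp, overlap by 1 bp, −log10 q of at least 5, an iEV RBPJ list of equal length, promoters of 5 kb, genes within 10 kb and motifs within 50 bp. Tools were pysam 0.24.0 and samtools 1.23.1 for sequence, pandas 2.3.3 for joins, scipy 1.17.1 for intervals, matplotlib 3.10.9 for plots, statsmodels 0.14.6 and numpy 2.4.6, under Python 3.11.15. Some named genes and 1 sequence are not reported here.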

Additional observations from a re-analysis of the deposited data

How the results depend on the processing

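No paired analysis was possible because each condition was 1 peak list called on pooled libraries, so that replicate numbers could not be used and no library could be left out. With summits below 100 bp apart, SOX2 sites with RBPJ in iN1-ICD numbered 8526, RBPJ summits of iN1-ICD at SOX2 sites 8526, sites with both calls 5402, and genes with RBPJ in iN1-ICD at a SOX2 site 4027. Sites with RBPJ in iN1-ICD only numbered 1474 when peak regions had to overlap by 1 bp, 1611 with SOX2 peaks of −log10 q of at least 5, and 1459 without those that an iEV RBPJ region overlaps. That last setting, like the GC quintiles, was chosen after seeing the data. The odds ratio of the AP-1 motif was 1.04 over GC quintiles, across 1 from the 0.744 reported. The other main counts stayed within 1.5 times, while under the alternatives 24 counts for gene lists and 42 for key genes moved further (84 and 138 did not) and 42 calls at named sites changed (313 did not), most often with summits below 100 bp apart. The odds ratios of promoters, strong SOX2 sites and the RBPJ and SOX motifs kept their side of 1 with intervals that exclude it, although the promoter odds ratio was 1.40 at 100 bp and 1.22 over GC quintiles. With an iEV RBPJ list shortened to equal length, 3281 sites had RBPJ in iN1-ICD only and 5257 in iEV only. With the lists at full length, the RBPJ summits held a median of 14 fragments at sites called in iN1-ICD only and 15 at sites called in iEV only. Fragments were not counted for the shortened list, and the part of depth was not tested. Differences between vectors rest on 1 list each, a missing call does not show that RBPJ was absent, and the antibodies do not tell whether RBPJ was bound to N1-ICD.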

Other observations

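The SOX motif of the NRARP promoter site stands next to the letters atttgcat, the octamer known as the binding motif of POU factors such as OCT4. The octamer was searched after this sequence had been seen. That peak is narrow for its fold and had no HA-SOX2 call, and its reads were not examined. Within 100 bp of the SOX2 summit it was found at 228 of 16954 SOX2 sites with RBPJ in iN1-ICD (1.34%, 1.18 to 1.53) and at 402 of 21009 sites without (1.91%, 1.73 to 2.11). The odds ratio was 0.699 (0.593 to 0.823), and 1.08 (0.909 to 1.29) over GC quintiles.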
